A study of Rattus norvegicus with 2 samples.

Results

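Titin, nebulin and 8 further genes of the Z-disc and its surroundings (Ttn, Neb, Tcap, Myoz1, Actn2, Actn3, Ldb3, Xirp2, Myot and Csrp3) were followed through the cell types of skeletal muscle in 1 SD rat and 1 rat-mouse chimera. The 10 genes were taken by name, and each had 1 row among the 23373 rat genes and 1 row among the 25906 mouse genes of the reference. Skeletal muscle of the whole body was minced, dissociated with collagenase II and strained, viable cells were taken by flow cytometry with Calcein Violet, and droplet single-cell RNA sequencing (scRNA-seq) read the 3' ends of their polyadenylated RNA. The chimera was 1 of 7 animals, made by injecting mouse induced pluripotent stem cells (iPSCs) of the dystrophin mutant Dmd mdx, gene-edited at Dmd and carrying the Pax7-nGFP reporter, into SD rat morulae, so its rat cells are unedited host cells. The control was an SD rat, and neither animal received a treatment. Sex and exact age were not given in the sources used here. Each group was 1 animal and 1 library, so no test between them was possible, and every interval below is a 95% interval for counting error only, which treats unique molecular identifiers (UMIs) as independent and leaves out differences between animals, digestions and barcodes.

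The sarcomere is the contractile unit of striated muscle, and the Z-disc is the plate at its ends, where actin filaments of neighbouring sarcomeres are anchored. Titin spans from the Z-disc to the centre of the sarcomere as a molecular spring, and nebulin lies along the actin filament. Alpha-actinins (Actn2 and Actn3) cross-link actin in the Z-disc, Tcap caps the end of titin there, and Myoz1, Ldb3, Myot, Xirp2 and Csrp3 are proteins that bind alpha-actinin, filamin or actin at or near it. Satellite cells, the muscle stem cells marked by Pax7, give rise to Myog-expressing cells that leave the cell cycle and fuse into myofibres, which assemble sarcomeres.

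The libraries held 10117 (SD rat) and 13299 (chimera) barcodes, with medians of 5373 and 7407 UMIs, and 43 barcode sequences occurred in both. After filters and doublet removal, 8816 SD rat barcodes remained, and the chimera gave 8230 rat barcodes (at most 20% of UMIs on mouse genes), 1847 mouse barcodes (at least 80%) and 1653 mixed barcodes. Classes came from marker genes, with none of the 10 genes used to cluster. Myofibre-like barcodes numbered 1527 in the SD rat, 833 among chimera rat, 30 among chimera mouse and 404 among mixed barcodes. Satellite-like barcodes numbered 292, 254 and 32 in the first 3 populations, and Myog-positive barcodes, which are myogenic progenitor-like barcodes with at least 1 Myog UMI on the rat or mouse row, numbered 77, 132 and 12. Clusters were named from the same marker lists, so the marker levels given here describe the classes and do not check their names. All 13 myofibre markers in the rat and 13 of 16 in the mouse were above their level in fibro-adipogenic progenitor (FAP)-like barcodes. The other 3 in the mouse were at 0. Of 13 progenitor markers, 11 (SD rat), 12 (chimera rat) and 11 (mouse) were above the FAP-like level in satellite-like barcodes, where Myog is absent by rule. In Myog-positive barcodes 13, 12 and 12 were. Pax7 reached 154 counts per 1000000 UMIs (CPM) in SD rat, 92.6 in chimera rat and 436 in chimera mouse satellite-like barcodes, against at most 0.54 in FAP-like barcodes. Myofibre-like barcodes had medians of 3624 (SD rat), 4874 (chimera rat) and 2638.5 (mouse) UMIs. Whether such a barcode was a small myofibre, a fragment or muscle RNA in another droplet cannot be told apart here, nor can fewer transcripts per fibre from fewer intact fibres. Levels below are UMIs of a class summed and divided by its UMIs of the same species. They count 3' ends with no length scale, so they are compared between classes and not between genes, and a rat and a mouse row of a gene may also be counted with unequal efficiency.

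For 7 of the 10 genes, RefSeq on the GRCr8 rat build gave a sequence around the transcription start, and the 250 bases before it were searched on both strands. The build differs from that of the counts, so no coordinate below applies to the count data. The E-box, the hexamer CANNTG bound by myogenic regulatory factors such as MyoD and myogenin, occurred in 5 of the 7 and in 65.5% of 33465 rat promoters of that length. The MEF2 box, an A/T-rich element bound by myocyte enhancer factors, occurred in 3 of the 7 (Ttn, Myoz1 and Xirp2) and in 2.96% of all. The CArG box bound by serum response factor occurred in Ldb3 and in 1.50% of all. These are matches of letters and no evidence of binding. Promoters of Ttn and Neb, the pair with the most alike levels over the SD rat classes below, and of Actn2 and Actn3, the paralogs that parted between slow and fast fibres, are given 5' to 3' with every E-box and MEF2 box in capitals.
Ttn promoter, chr3:82332111-82332360, minus strand: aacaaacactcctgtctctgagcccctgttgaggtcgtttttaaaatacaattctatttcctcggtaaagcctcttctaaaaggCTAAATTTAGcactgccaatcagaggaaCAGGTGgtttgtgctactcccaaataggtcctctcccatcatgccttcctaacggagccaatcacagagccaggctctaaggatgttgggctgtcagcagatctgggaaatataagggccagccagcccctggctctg
Neb promoter, chr3:57220710-57220959, minus strand: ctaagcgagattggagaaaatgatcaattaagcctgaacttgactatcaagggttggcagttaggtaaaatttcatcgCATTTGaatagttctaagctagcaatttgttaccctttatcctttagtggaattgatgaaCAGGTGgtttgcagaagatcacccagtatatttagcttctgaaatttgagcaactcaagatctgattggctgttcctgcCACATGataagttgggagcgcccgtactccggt
Actn2 promoter, chr17:62834805-62835054, plus strand: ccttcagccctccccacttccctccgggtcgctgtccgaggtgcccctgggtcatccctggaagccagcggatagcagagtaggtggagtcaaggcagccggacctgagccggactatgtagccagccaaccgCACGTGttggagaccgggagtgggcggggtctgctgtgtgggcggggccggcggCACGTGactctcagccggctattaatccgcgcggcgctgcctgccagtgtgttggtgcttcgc
Actn3 promoter, chr1:211604402-211604651, minus strand: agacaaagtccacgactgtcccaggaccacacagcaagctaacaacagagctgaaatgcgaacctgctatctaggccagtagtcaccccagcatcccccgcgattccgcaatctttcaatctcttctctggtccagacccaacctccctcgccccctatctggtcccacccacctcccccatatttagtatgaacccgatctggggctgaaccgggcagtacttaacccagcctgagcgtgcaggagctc
The 10-base capitals in the Ttn promoter are its MEF2 box, CTAAATTTAG, with 156 bases between it and the start, and all other capitals are E-boxes, 1 in Ttn, 3 in Neb, 2 in Actn2 and 0 in Actn3. Ttn and Neb shared the run gaacaggtggtttg around an E-box, with 127 and 101 bases between it and their starts. At 14 bases it was the longest run shared on the same strand by any of the 21 promoter pairs, followed by 10 bases.

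All 10 genes were highest in myofibre-like barcodes of the SD rat and the chimera rat, except Csrp3, which was highest in Myog-positive barcodes. In the SD rat, summed levels of the 10 genes came to 11907 CPM in myofibre-like, 2748 in Myog-positive and 597 in satellite-like barcodes, and the chimera rat gave 11771, 2327 and 340 CPM. In mouse barcodes the mouse rows gave 9937, 713 and 93.2 CPM. The order of classes was thus the same in the 3 populations for the sum. For Ttn and Neb alone it differed in the mouse, with 442 and 210 CPM in Myog-positive against 340 and 103 CPM in myofibre-like barcodes. Their intervals overlapped. The mouse Myog-positive sum came from 129 UMIs in 12 barcodes, and 1 barcode held 69 Ttn UMIs.

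Titin, the spring of the sarcomere, stood at 1429 CPM (1400.2 to 1458) in SD rat, 710 CPM (686 to 735) in chimera rat and 340 CPM (234 to 477) in chimera mouse myofibre-like barcodes. Nebulin, the ruler of the thin filament, stood at 857 CPM (835 to 880.1), 539 CPM (518 to 560) and 103 CPM (49.4 to 189), the last from 10 UMIs. For both genes, levels were ordered SD rat, chimera rat, mouse, and the intervals did not overlap. Myoz1, a calcineurin-binding protein of fast fibres, had 3796 CPM (3749 to 3843), 4498 CPM (4438 to 4559) and 3831 CPM (3451 to 4240), so the mouse interval overlapped that of the SD rat. Actn3, the alpha-actinin of fast fibres, had 2085 CPM (2050.3 to 2120), 2329 CPM (2286 to 2373) and 2893 CPM (2565 to 3252), in the opposite order to titin. Tcap, the cap of titin in the Z-disc, was close in all 3 with 1517, 1620.1 and 1678 CPM, and the mouse interval of 1431 to 1957 covered both rat values. Actn2, the alpha-actinin present in all fibres, was at 377, 307 and 61.8 CPM, with 6 UMIs in the mouse (interval 22.7 to 134).

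Ldb3, a PDZ and LIM domain protein that binds alpha-actinin, had 453, 427 and 237 CPM in the same order. Xirp2, an actin-binding repeat protein, had 615, 477 and 360 CPM, and Myot, which binds alpha-actinin and filamin, had 520, 672 and 381 CPM. Csrp3, a LIM protein best known from heart and slow muscle, had 256, 190 and 51.5 CPM, the last from 5 UMIs of 1 barcode. The Csrp3 UMIs were unevenly spread, since the 10 richest barcodes held 32.7% of them in the SD rat and 61.1% in the chimera rat. For the other 9 genes those shares ran from 3.59% to 17.8% in the SD rat and from 4.25% to 12.7% in the chimera rat. The plot of levels by class shows these values beside those of the progenitors.

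**Figure D1:**
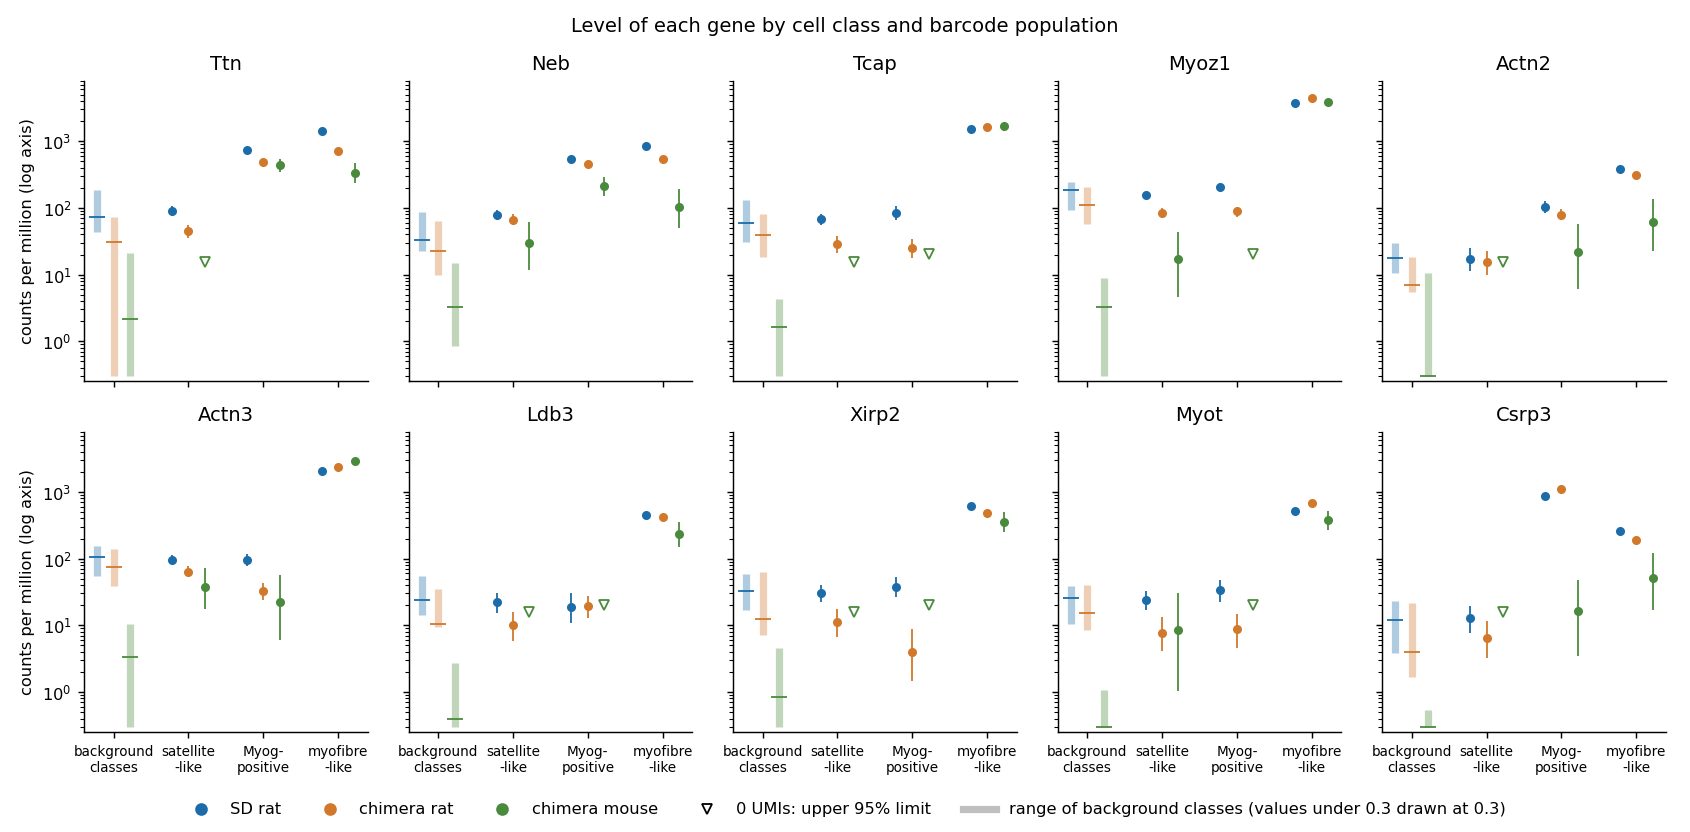
Level of each gene in CPM (log axis) in satellite-like, Myog-positive and myofibre-like barcodes of the SD rat, the chimera rat and the chimera mouse, with 95% Poisson intervals as vertical lines; bars at the left span the background classes (10 in the rat, 7 in the mouse) with their median as a dash. Myofibre-like points lie above every background bar for all 10 genes in both rat populations, while Csrp3 peaks in Myog-positive barcodes at 880 and 1126 CPM. The share of all genes above these bars was not counted.

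Named classes of other cell types served as background, 10 in the rat and 7 in the mouse, without erythroid, cycling and unnamed barcodes. The rat ones include pericyte or smooth muscle-like barcodes, which are contractile cells themselves and were the highest class for several genes. Ttn had UMIs in 26.3% of SD rat endothelial-like barcodes (median depth 1886 UMIs) and in 28.0% of FAP-like barcodes (median depth 10918.5). In the SD rat, Ttn ranged over the 10 background classes from 43.3 CPM (FAP-like) to 187 CPM (pericyte or smooth muscle-like), and Myoz1 from 93.5 to 246 CPM. Endothelial-like mouse barcodes of the chimera carried 1216 UMIs of the 10 genes on rat rows and 212 on mouse rows, although 94.95% of all their UMIs were mouse. Mouse rows of the 10 genes came to 37.9 CPM there, against 955 CPM in SD rat endothelial-like barcodes. Whether the rat-row UMIs were rat RNA or mouse reads placed on rat rows was not tested. In mouse myofibre-like barcodes rat rows took a median of 11.5% over 380 gene pairs.

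In satellite-like barcodes the 10 genes were low, and 0 of 10 had an interval over the interval of every background class in the SD rat, in the chimera rat or in the mouse. The share of all genes passing that rule was not counted. In the mouse that rule is weak, because the smallest class (26 Schwann or glial-like barcodes) reaches 39.2 CPM at 0 UMIs. Mouse satellite-like Actn3 (38.1 CPM, 9 UMIs), Neb (29.7 CPM, 7 UMIs) and Myoz1 (16.9 CPM, 4 UMIs) were 11.2, 9.23 and 5.11 times the median of the background classes and, like Myot (8.47 CPM, 2 UMIs), over the level of every one of them. Ttn in satellite-like barcodes was at 89.3 CPM in the SD rat and 44.8 CPM in the chimera rat, and 0 UMIs were seen in 32 mouse barcodes, which allows up to 12.7 CPM at 3 counts. In the rat, Neb lay furthest over the median of the background classes, at 79.2 and 66.7 CPM, or 2.41 and 2.98 times that median, and pericyte or smooth muscle-like barcodes reached 88.3 and 63.2 CPM. Among chimera rat satellite-like barcodes, mouse rows took 8.43% of the UMIs of the 10 genes, against 10.0% in endothelial-like and 2.07% in myofibre-like rat barcodes.

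Against satellite-like barcodes, all 10 genes were at least 2-fold higher in myofibre-like barcodes of the SD rat, where 12.5% of all genes were and 61.8% were 2-fold lower, and all 10 in the chimera rat, where 10.9% were and 66.6% were lower. In mouse barcodes 7 of the 7 genes with at least 20 UMIs were, beside 13.1% of all genes higher and 67.2% lower. Folds in the SD rat lay between 10.8 (Neb) and 23.97 (Myoz1), and in the chimera rat between 8.08 (Neb) and 87.7 (Myot). In mouse barcodes, where background was lower, Myoz1 was 226-fold higher (4 UMIs in satellite-like barcodes, log2 interval 6.45 to 9.70), and Tcap was at least 132-fold higher against 0 UMIs taken at 3 counts. Neb, Actn2 and Csrp3 had 17, 6 and 5 UMIs in the 2 mouse classes together and were not called.

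Myog-positive barcodes parted the 10 genes into a group of 4 and a group of 6. Ttn, Neb, Actn2 and Csrp3 were above every background class in both rat populations, and the other 6 were not. The share of all genes above these classes was not counted, so the split is not set against it. Csrp3 stood at 12.7 CPM in satellite-like and 880 CPM (819 to 943) in Myog-positive barcodes of the SD rat, and at 6.49 and 1126 CPM (1073 to 1181) in those of the chimera rat. Both Myog-positive values were over the myofibre-like level of the same animal (256 and 190 CPM). Ttn stood at 739 and 488 CPM, Neb at 546 and 454 CPM, and Actn2 at 104 and 79.3 CPM, each under its myofibre-like level. The other 6 genes included Tcap at 84.4 and 25.3 CPM against 67.1 and 28.9 CPM.

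On the log2 scale, Myog-positive against satellite-like, Csrp3 differed by 6.12 (5.48 to 6.84) in the SD rat and 7.44 (6.60 to 8.44) in the chimera rat, and Ttn by 3.05 (2.78 to 3.32) and 3.45 (3.10 to 3.81). Neb differed by 2.79 and 2.77, and Actn2 by 2.61 and 2.37. These 4 were at least 2-fold higher in the SD rat (9.71% of all genes were higher and 10.4% lower) and in the chimera rat (8.03% of all genes were). Of the rest, Xirp2 was at least 2-fold lower in the chimera rat (11.6% of all genes were), from 6 against 19 UMIs. Actn3 was at 96.6 against 96.9 CPM in the SD rat and at 32.6 against 63.7 CPM in the chimera rat, a log2 ratio of -0.96 in the latter.

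These levels rested on few barcodes. The 10 richest Myog-positive barcodes held 83.3% of Csrp3 and 75.04% of Ttn UMIs in the SD rat, and 56.2% and 61.9% in the chimera rat. Without the 10 richest barcodes of each gene in both classes, the same 4 genes kept a 2-fold difference in the SD rat. Csrp3 was at a log2 ratio of 4.85, Neb 1.92, Ttn 1.88 and Actn2 1.86. In the chimera rat Ttn was at 3.26, Actn2 at 2.98 and Neb at 2.53. No satellite-like Csrp3 UMI was left there, so its value is only a bound at 3 counts. For Actn2 there, the step took 61.5% of satellite-like but 41.2% of Myog-positive UMIs, and its ratio rose from 2.37. The 10 barcodes were 10 of 77 or 132 Myog-positive and 10 of 292 or 254 satellite-like ones. The same step put Tcap at -1.55 and Actn3 at -1.25 in the SD rat. It moved all genes as well: 2.86% were then 2-fold higher and 36.3% lower in the SD rat (median -0.65), and 7.22% and 19.3% in the chimera rat (median -0.20). Myog-positive barcodes were also deeper (medians of 10893 and 10465.5 UMIs) than satellite-like ones (5419.5 and 6452.5). After thinning each barcode to 1000 UMIs, Csrp3 was seen in 17.1% (9.18 to 28.0) of SD rat and 34.4% (26.3 to 43.1) of chimera rat Myog-positive barcodes, against 1.41% and 0.80% of satellite-like and 1.96% and 0.30% of endothelial-like ones. Without thinning the shares were 44.2% and 48.5%, against 6.16% and 2.76% in satellite-like and 4.601% and 2.22% in endothelial-like barcodes. Thinned shares in myofibre-like barcodes were 9.89% and 6.66%, and the SD rat interval of 8.39 to 11.6 overlapped that of its Myog-positive barcodes.

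Mouse Myog-positive barcodes numbered 12. Their mouse rows held 80 Ttn UMIs (442 CPM) and 38 Neb UMIs (210 CPM), both above the mouse background classes, whose highest levels were 21.2 and 14.7 CPM. The richest barcode for Ttn carried 69 of the 80 Ttn UMIs, and the richest for Neb carried 32 of the 38 Neb UMIs. Actn2 (4 UMIs), Actn3 (4) and Csrp3 (3) were at 22.1, 22.1 and 16.6 CPM, and the remaining 5 genes had 0 UMIs, which allows up to 16.6 CPM each. The upper limit of 48.5 CPM for mouse Csrp3 lay under both rat values, for counting error over 12 barcodes alone.

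Other genes of the Z-disc and the sarcomere scaffold, from a list of 46 of which 44 had a rat row, split in the same comparison. Of 34 with enough UMIs, 13 were at least 2-fold higher and 2 lower in SD rat Myog-positive barcodes, and 18 higher and 3 lower in the chimera rat, beside the shares of all genes given above. The list had a median log2 ratio of 0.28 and 1.23, beside 0.042 and -0.027 for all genes. Klhl40, which stabilises nebulin and leiomodin, had log2 ratios of 6.80 and 6.07, and Lmod2, a leiomodin that elongates thin filaments, 5.43 and 7.42. Klhl41, a relative of Klhl40, had 4.78 and 5.64, and Xirp1, the paralog of Xirp2, 4.20 and 4.76. Mybpc1, the slow myosin-binding protein C, was lower in both at -1.55 and -1.87.

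Between the animals, titin differed most of the 10 genes in myofibre-like barcodes. Chimera rat barcodes had 3353 Ttn UMIs and SD rat barcodes 9383, so that 710 CPM stood against 1429 CPM, a log2 ratio of -1.01 (-1.07 to -0.95). It was the only 1 of the 10 genes past 2-fold lower, where 11.5% of all genes were, and 0 were past 2-fold higher, where 1.73% were. The share lower was thus no larger than that of all genes. The median over all 8137 genes was -0.23, and titin lay at -0.77 relative to it. Neb followed at -0.67 (-0.74 to -0.60), then Csrp3 at -0.43, Xirp2 at -0.37 and Actn2 at -0.30. Ldb3 at -0.085 and Tcap at 0.095 were nearest to 0, and Actn3 at 0.16, Myoz1 at 0.24 and Myot at 0.37 were higher in the chimera rat.

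The titin value lay at the threshold and moved over it. Over 15 other settings it ran from -1.21 to -0.87, with 8 past and 7 short of 2-fold. The 8 include repeats of the first value: a higher limit on summed UMIs cannot change a ratio. The lower clustering resolution likewise left 833 and 1527 myofibre-like barcodes and the same median over all genes. It was -0.93 among fast barcodes of both animals and -0.87 without the 10 richest barcodes of each animal, which held 17.8% of SD rat and 9.51% of chimera rat Ttn UMIs. With those barcodes left out, Csrp3 moved from -0.43 to -1.22 (-1.40 to -1.04), while the median over all genes moved to -0.39 and the share lower to 21.4%. Adding mouse-row UMIs to the rat row, since the chimera reads could map to either species and the SD rat reads to rat only, left titin at -1.05. That step moved the median over all genes from -0.23 to -0.13 and the share lower from 11.5% to 6.7%.

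Titin was also lower in the chimera in classes where it was background. Its log2 ratio was -1.46 in endothelial-like, -1.50 in FAP-like and -0.99 in satellite-like barcodes, with class medians over all genes of 0.0068, 0.073 and 0.0099. In the same classes Neb had -1.70, -1.19 and -0.25, and Myoz1, which was higher in chimera rat fibres, had -1.03, -0.69 and -0.90. In Myog-positive barcodes Ttn was at -0.60, Neb at -0.27, Actn2 at -0.40 and Csrp3 at 0.36. The part of free RNA and of the reference in these differences was not tested.

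**Figure D2:**
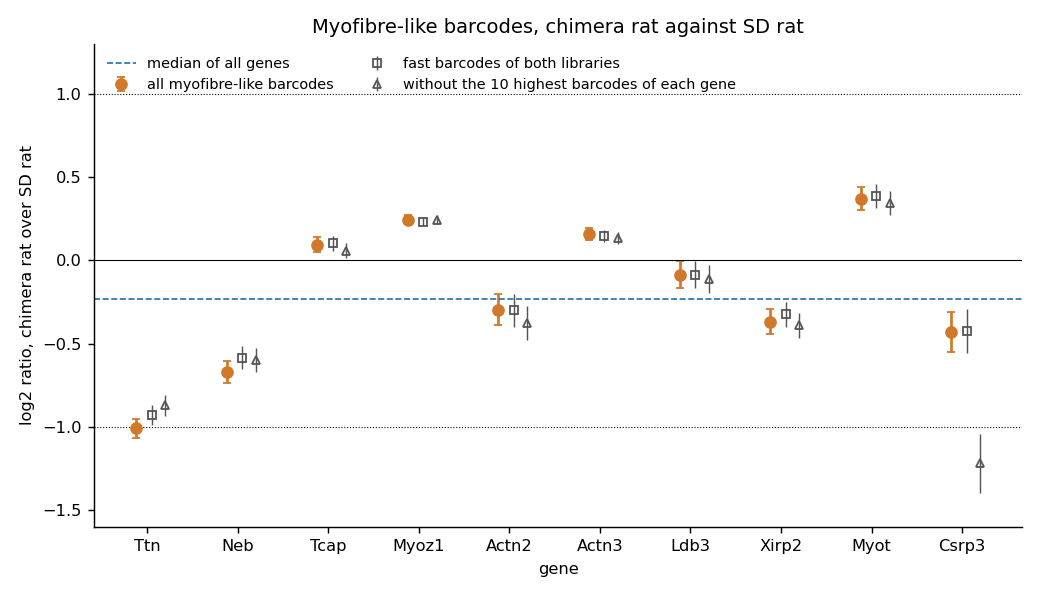
Log2 ratio of chimera rat over SD rat in myofibre-like barcodes for the 10 genes, with 95% binomial intervals for counting error; open squares use fast barcodes alone, open triangles leave out the 10 richest barcodes of each gene, dotted lines mark 2-fold and the dashed line the median of all genes (-0.23). Ttn lies lowest at -1.01 and Myot highest at 0.37, and Csrp3 drops to -1.22 without its 10 richest barcodes.

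Of the other 44 Z-disc and scaffold genes, 43 could be compared between the animals; 0 were past 2-fold higher and 3 past 2-fold lower, with a list median of -0.38, beside 1.73% higher and 11.5% lower of all genes. The share lower was no larger than that of all genes. The 3 were Obsl1, the obscurin-like linker (4 against 31 UMIs, -2.48), Actn4, a non-muscle alpha-actinin (30 against 92 UMIs, -1.14), and Mybpc2, the fast myosin-binding protein C (2034 against 6113 UMIs, -1.11).

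Myofibre-like barcodes fell into 4 clusters in the SD rat and 3 in the chimera rat, which differed in fibre-type genes. Among SD rat clusters, cluster 13 (318 barcodes), led by the fast IIB myosin Myh4, had the highest Ttn at 3633 CPM, Neb at 1759.5 CPM and Actn3 at 3256 CPM. Cluster 1 (874 barcodes), also fast, had 707, 601 and 2133 CPM of these genes. Cluster 14 (284 barcodes), led by the oxygen store myoglobin (Mb), had 886 CPM of Csrp3 and 2668 CPM of Tcap, against 14.5 and 946 CPM in cluster 1. Cluster 26 (51 barcodes), led by slow troponins and light chains, had 1890.3 CPM of Csrp3, 4715 CPM of Tcap and 1192 CPM of Actn2, but 64.4 CPM of Actn3 and 521 CPM of Myoz1.

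In the chimera rat, too, the Myh4-led cluster was highest for Ttn and Neb. Cluster 13 (240 barcodes, Myh4) had 1428 CPM of Ttn and 947 CPM of Neb, against 416 and 378 CPM in cluster 2 (567 barcodes). Cluster 28 (26 barcodes, of which 14 were slow, 6 fast and 6 intermediate by the split below), led by slow light chains and troponins, had 2711 CPM of Csrp3, 4822 CPM of Tcap, 1259 CPM of Actn2 and 75.8 CPM of Actn3. Of its 465 Csrp3 UMIs, the slow barcodes held 39 and the intermediate ones 152. The 6 fast barcodes held the rest, which was most of them, with 169 in 1 fast barcode. No chimera rat cluster reached the Ttn level of SD rat cluster 13. The 30 mouse myofibre-like barcodes formed 1 cluster, in which all were fast and none was slow.

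**Figure D3:**
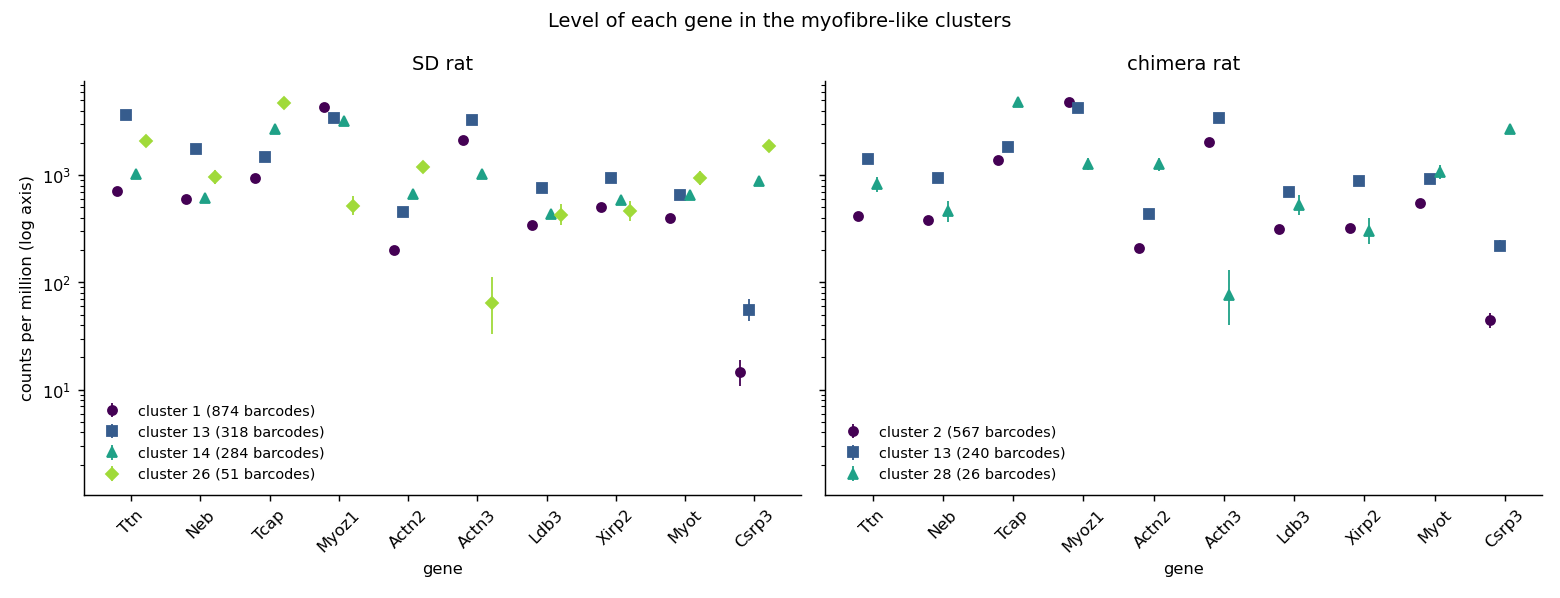
Level of each gene in CPM (log axis) in the myofibre-like clusters of the SD rat (left) and the chimera rat (right), with 95% Poisson intervals. The clusters led by slow-fibre genes (26 in the SD rat, and 28 in the chimera rat with 14 slow barcodes of 26) lie highest for Tcap, Actn2 and Csrp3 and lowest for Myoz1 and Actn3, and the Myh4-led clusters (13 in each) lie highest for Ttn and Neb. Most Csrp3 UMIs of cluster 28 lay in its fast barcodes.

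Barcodes were also split by fibre type without any of the 10 genes, from the share of UMIs on 6 slow genes among these and 8 fast genes (7 with a rat row). At least 50% made a slow barcode and at most 10% a fast one. This gave 42 slow, 1468 fast and 17 intermediate barcodes in the SD rat, and 14, 813 and 6 in the chimera rat. Within 10 percentage points of the slow limit, or over the fast limit by up to 10 points, lay 13 SD rat and 4 chimera rat barcodes.

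Actn3 was a gene of fast barcodes, with 13667 UMIs (2151 CPM) against 8 UMIs (49.1 CPM) in slow ones of the SD rat, and 10991 UMIs (2382 CPM) against 0 in the chimera rat. The slow level in the SD rat was under the 55.6 CPM of FAP-like barcodes, the lowest background class. Myoz1 was at 3905 CPM in fast and 448 CPM in slow SD rat barcodes, and at 4587 and 491 CPM in the chimera rat. Csrp3 had the reverse pattern, with 205 CPM in fast and 1840.5 CPM in slow SD rat barcodes, and 153 and 580.3 CPM in the chimera rat, where the 6 intermediate barcodes held 152 Csrp3 UMIs, 116 of them in 1 barcode. Tcap was at 1424 and 4804 CPM, and at 1531 and 5327 CPM. Actn2, the paralog of Actn3, was at 349 CPM in fast and 1135 CPM in slow SD rat barcodes, and at 284 and 1384 CPM in the chimera rat.

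Slow against fast, Tcap, Actn2 and Csrp3 were at least 2-fold higher in the SD rat (22% of all genes were), and these 3 and Myot in the chimera rat (37.9% of all genes were). Lower were Myoz1 and Actn3 in the SD rat (8.31% of all genes were), and both with Xirp2 in the chimera rat (6.84% of all genes were). The log2 ratio of Actn3 was -5.45 (-6.67 to -4.47) in the SD rat, and in the chimera rat it was at least 53.4-fold lower at 3 counts. Myoz1 had -3.12 and -3.22, Csrp3 3.16 and 1.92, Tcap 1.75 and 1.80, and Actn2 1.70 and 2.29. The median over all genes was 0.31 and 0.66. Without the richest barcode of each gene, Tcap was at 0.96 and Myot at 0.12 in the chimera rat, and 2 genes were 2-fold higher. That step moved all genes, with the median going to -0.24 and the share higher to 15.2%.

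Ttn and Neb did not follow fibre type past 2-fold. Ttn was at 1346 CPM in fast and 2147 CPM in slow SD rat barcodes, a log2 ratio of 0.67, and at 707 and 893 CPM in the chimera rat. A single slow SD rat barcode held 155 of 350 Ttn UMIs, and without the richest barcodes the ratio was -0.13, beside a median over all genes of -0.11. The 17 intermediate SD rat barcodes stood apart, at 9815 CPM of Ttn (8960 to 10730) and 6550.1 CPM of Neb, from 484 and 323 UMIs. Of those, 1 barcode held 162 Ttn and 1 held 148 Neb UMIs.

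**Figure D4:**
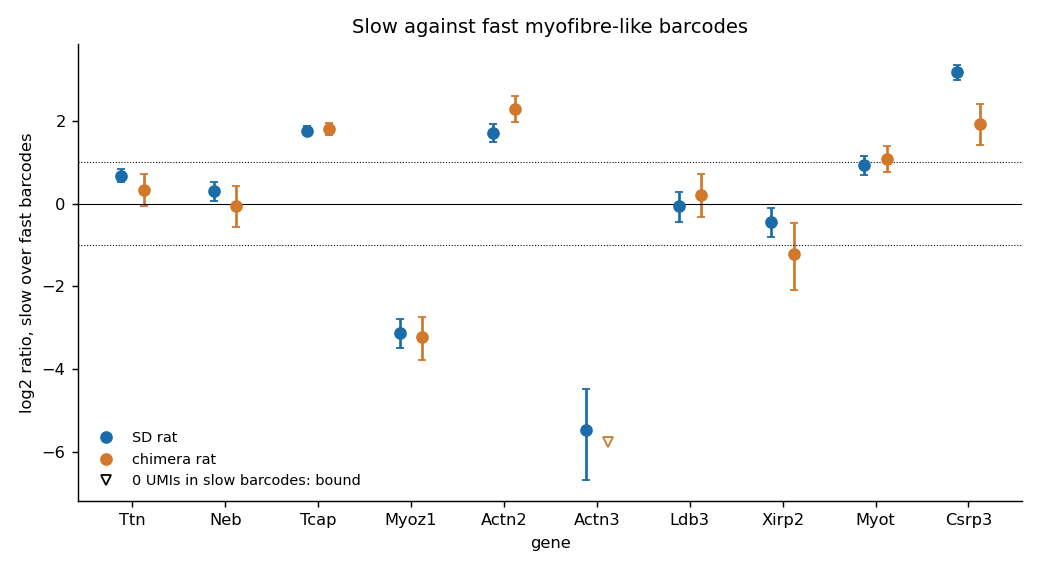
Log2 ratio of slow over fast myofibre-like barcodes for the 10 genes in the SD rat (42 slow, 1468 fast) and the chimera rat (14 slow, 813 fast), with 95% binomial intervals; the open triangle is a bound from 3 counts where slow barcodes had 0 UMIs, and dotted lines mark 2-fold. Actn3 and Myoz1 lie far below 0 in both animals, and Tcap, Actn2 and Csrp3 above 2-fold.

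Of the other Z-disc and scaffold genes, 13 of 41 were past 2-fold higher and 6 lower in slow barcodes of the SD rat, beside 22% and 8.31% of all genes. In the chimera rat 16 of 40 were higher and 5 lower, beside 37.9% and 6.84% of all genes, so the share higher was near that of all genes. Myoz2, the slow-fibre paralog of Myoz1, had log2 ratios of 5.78 and 6.14, and Ankrd2, a titin-associated ankyrin protein of slow muscle, 6.28 and 5.65. Mybpc2 had -4.70 in the SD rat, from 6 UMIs in slow barcodes, and 0 UMIs in those of the chimera rat.

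Mouse and rat rows were then compared within the chimera's myofibre-like barcodes, to see from which species the transcripts of the 10 genes came. In rat barcodes mouse rows held 1172 UMIs of the 10 genes and rat rows 55558, a mouse share of 2.07%, with 0.75% (Actn2) as the lowest and 3.85% (Xirp2) as the highest. The median over 2050 same-named gene pairs with at least 100 UMIs in those barcodes was 3.78%. The mouse share of all UMIs also counts genes without a same-named pair, and at 9.24% it lay over that median. Rat and mouse barcodes were defined by their mouse share of all UMIs, so their low and high shares follow from the rule. In mouse barcodes the mouse share was 83.9% (81.7 to 86.0), from 965 mouse-row and 185 rat-row UMIs, against 86.2% of all their UMIs.

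Mixed myofibre-like barcodes carried 6932 UMIs of the 10 genes on mouse rows and 11527 on rat rows, a mouse share of 37.6% (36.9 to 38.3), against 44.6% of all their UMIs. The latter again counts genes without a same-named pair. No median over gene pairs was taken here, so whether the 10 genes differed from other pairs cannot be said. The genes did not share 1 ratio. Actn3 had 46.6% (45.1 to 48.1) and Xirp2 44.5% (40.8 to 48.2), while Actn2 had 18.0% (14.3 to 22.1), Myot 24.04% (21.3 to 27.0), Csrp3 27.3% (21.2 to 34.0) and Ttn 27.5% (24.9 to 30.3). Actn2 was lowest and Actn3 highest in both mixed clusters: Actn2 had 15.5% in cluster 1 (246 barcodes) and 18.9% in cluster 3 (158 barcodes), and Actn3 47.8% and 45.4%. In rat barcodes Actn3 and Xirp2 were likewise the highest (3.23% and 3.85%) and Actn2 the lowest. A fibre with nuclei of both species, a droplet with 2 cells, and free RNA cannot be told apart by these counts.

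**Figure D5:**
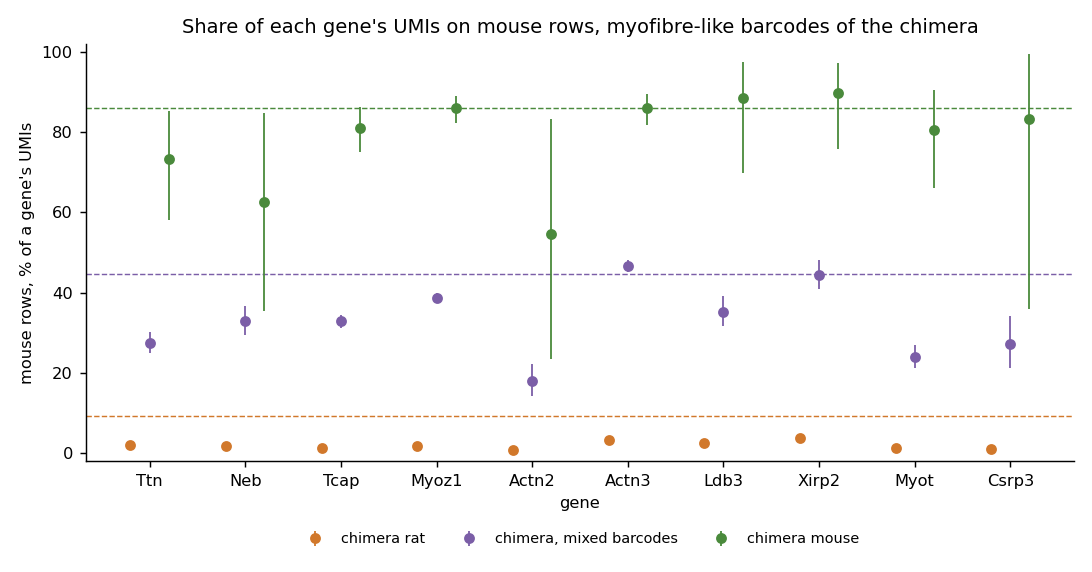
Share of each gene's UMIs on mouse rows (percent of rat and mouse rows together) in myofibre-like rat, mixed and mouse barcodes of the chimera, with exact binomial 95% intervals; dashed lines give the mouse share of all UMIs in the same barcodes (9.24%, 44.6% and 86.2%). In mixed barcodes the genes spread from 18.0% (Actn2) to 46.6% (Actn3). The dashed lines also count genes without a same-named pair.

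An unnamed mixed cluster of 121 barcodes, led by Cpa1, Opcml and Asb5 and with Cdh15 and Myog among its top genes, had 56.5% of its UMIs on mouse rows. That share, too, counts genes without a same-named pair, and no median over pairs was taken. UMIs of the 10 genes were mostly on rat rows there, where mouse rows held 9.26% of Ttn, 9.91% of Neb, 11.8% of Myoz1 and 17.2% of Actn3 UMIs, and 0 of 11 Csrp3 UMIs.

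Finally, the genes with the most similar levels were sought over 16 SD rat class profiles, by Pearson's r of log2(CPM + 10) among 12310 genes. All profiles share 1 library and its free RNA, so these are descriptions. Ttn and Neb were most like each other (r = 0.992, and 0.948 over 18 chimera rat profiles), followed by Actn2 (0.973) and the ubiquitin ligase Trim63 (0.972) for Ttn, and by the splicing factor Rbfox1 (0.977) and Dusp13 (0.975) for Neb. Actn3 was most like Mybpc2 (0.988), Myh4 (0.986) and a gene without a symbol, and Myoz1 like the fast light chain Mylpf (0.987), the glycolytic enzyme Pgam2 (0.986) and the fast troponin Tnnc2 (0.981). Actn2 was most like the fatty acid binding protein Fabp3 (0.984), Trim63 (0.984) and Art1 (0.983). Ldb3 was most like the nebulin-related anchoring protein Nrap (0.990), the calcium store protein Casq1 (0.985) and the calcium channel Cacna1s (0.982), and Xirp2 like Cacna1s (0.983), Ldb3 (0.978) and Perm1 (0.974). Myot was most like Lmod3 (0.989), Ckmt2 (0.988) and Art1 (0.986), and Tcap like Apobec2 (0.991), a gene without a symbol and Lmod3 (0.988). Csrp3 was most like Myo18b (0.979), Lmod2 (0.978) and Klhl41 (0.957), and in the chimera rat those correlations were 0.594, 0.876 and 0.923.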

How the data were processed

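The 2 libraries, 1 per group, were grouped by title. The authors deposited unnormalised UMI counts, and the files and the submitters' processing notes name Cell Ranger 7.1.0, mRatBN7.2 and GRCm39. The chimera was counted on both genomes together and the SD rat on the rat genome, so reads that match both species are lost or moved in the chimera alone. Barcodes needed 500 UMIs, 200 genes and at most 20% mitochondrial UMIs. Scrublet in scanpy 1.11.5 marked 164 SD rat and 444 chimera doublets, which were left out. Each population was clustered separately (2000 variable genes without the 10 genes, 30 components, 15 neighbours, leidenalg 0.10.2, resolution 1) and clusters were named from marker lists. UMIs were summed per class and given as CPM with exact Poisson intervals. Shares have Clopper-Pearson intervals and log2 ratios exact binomial intervals, all at 95%. A ratio needed 20 UMIs in both classes together, and 0 was set to 3 counts. A ratio bounded this way on the wrong side of 0 was left out. Calls are 2-fold and not tests. The code was tested on simulated data. Alternatives changed the filters, doublets, species calls, clustering, Myog rule, scaling and depth (1000 UMIs a barcode), or left out the richest barcodes. All 10 genes were named, with the 3 genes most like each, and the scaffold genes past 2-fold between the animals, at most 5 in each direction; other scaffold genes named were chosen after their values were seen. Members and lists were chosen with earlier results of these data known.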

Additional observations from a re-analysis of the deposited data

Results flagged for a closer look

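For 3 genes a log2 ratio had opposite signs in the 2 animals while at least 1 of the 2 counting intervals left out 0. The differences were not tested, since each animal gave 1 library. Myog-positive against satellite-like, Ldb3 had -0.23 (-1.16 to 0.64) in the SD rat and 0.95 (0.034 to 1.90) in the chimera rat, and Xirp2 had 0.31 (-0.37 to 0.98) and -1.49 (-3.10 to -0.11). Slow against fast, Neb had 0.30 (0.061 to 0.52) in the SD rat and -0.052 (-0.58 to 0.43) in the chimera rat. Without the richest barcode in each class, Neb was at -0.38 and -0.41, beside medians over all genes of -0.11 and -0.24.

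Barcodes over the mitochondrial limit, which entered only the setting without that limit, also carried the genes: 1028 in the SD rat and 762 in the chimera. They were not split by class, so their levels mix muscle and other barcodes. In that setting, myofibre-like barcodes went from 1527 to 1610 in the SD rat and from 833 to 849 in the chimera rat. Myog-positive ones went from 77 to 88 and from 132 to 161. Their levels were above every background class for all 10 genes in the SD rat. Ttn had 521 CPM, Myoz1 347 CPM, Actn3 256 CPM, Tcap 225 CPM and Neb 210 CPM. Xirp2 had 121 CPM, Csrp3 101 CPM, Ldb3 97.3 CPM, Myot 88.5 CPM and Actn2 67.5 CPM. In the chimera, 4 of the 10 rat rows were above the background classes: Ttn with 235 CPM, Neb with 146 CPM, Csrp3 with 68.9 CPM and Ldb3 with 67.2 CPM. The share of all genes above the background classes was not counted in either library.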

How the results depend on the processing

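Of 141 counts of genes past 2-fold under other settings, 130 stayed within 1.5 times the count first given. The 1 gene (Ttn) lower in chimera rat than SD rat myofibre-like barcodes became 0 with mixed barcodes called by majority, without Rn18s-rs5 in the species share, at 1000 UMIs, without the richest barcode, after thinning to 1000 UMIs and among fast barcodes; the last was chosen after seeing the data, as was leaving out the 10 richest barcodes, where the 1 gene was Csrp3 and not Ttn. In mouse barcodes 3 of 3 genes, not 7 of 7, remained to be compared at 100 summed UMIs and after thinning. The chimera rat slow barcodes had 2 genes higher, not 4, without the richest barcode, where the share of all genes higher went from 37.9% to 15.2% and their median from 0.66 to -0.24. With the 10 genes in the clustering, only 2 chimera rat barcodes were named satellite-like; 0 of 6 genes were then higher in Myog-positive and 3 of 8 in myofibre-like barcodes, and signs turned for Ttn (-1.35 Myog-positive, -1.22 myofibre-like), Neb (-0.91 and -1.04), Actn2 (-1.45, Myog-positive) and Csrp3 (-2.86, myofibre-like). Of 611 values for ratios past 2-fold, 605 kept their sign, and of 354 for ratios under 2-fold, 315 did and 39 did not. Part of these values was fixed in advance. The limit on summed UMIs changes no ratio, and scaling shifts all genes of a comparison alike. The Myog rule by species left the SD rat classes at 77 and 292 barcodes. At a 90% species threshold the mouse comparison of myofibre-like with satellite-like barcodes was not run, as a class had no barcode. No paired analysis was possible because each group has 1 library. Depth limits the mouse classes most: 3 counts amount to 30.9 CPM in mouse myofibre-like and 12.7 CPM in mouse satellite-like barcodes.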
